A study of Papio hamadryas with 72 samples.

Results

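Cholesterol is built in a long chain of reactions that starts from acetyl-CoA, passes through mevalonate, farnesyl diphosphate and squalene, and ends with the trimming of the sterol ring. The chain runs in most cells and is most active in liver, and its genes share a transcription factor, SREBP2, which is released from the endoplasmic reticulum when membrane sterol is low. Cholesterol that arrives with food keeps SREBP2 in place and so holds these genes down in liver. The genes described here are 8 enzymes of this chain, chosen by gene symbol: HMGCS1, which makes HMG-CoA, IDI1 and FDPS, which work on the isoprenoid units, FDFT1 and SQLE, which make squalene and its epoxide, and NSDHL, SC5D and DHCR7, which act on the sterol ring. All 8 are synthesis enzymes, and genes of cholesterol uptake are given only as context. The 8 genes were chosen with earlier results of these data known. Shares of all genes set beside counts of them are therefore descriptions and not tests.

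Each gene was read by its brightest detected probe on a human whole-genome bead array, and 6 of the 8 could be compared in liver and in adipose and 4 in skeletal muscle, out of 8685, 9277 and 8052 genes tested in these tissues. FDFT1 had no probe under its symbol in the probe table and was not analysed here. The IDI1 probe was above background on 0 of 24 liver arrays, 0 of 24 adipose arrays and 1 of 24 muscle arrays, so no level is given for it. In muscle the SQLE probe was detected on 2 of 24 arrays and the NSDHL probe on 3 of 24, and both were left out of the comparisons within that tissue. The probes were designed on human transcripts and hybridized with baboon RNA, so the level of a probe is compared with itself across arrays and never with that of another probe.

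The animals were 12 juvenile baboons (Papio hamadryas) of about 4.5 years. The MUN group (maternal undernutrition) comprised 6 offspring of mothers given fewer calories in pregnancy and through lactation. The CON group comprised 6 offspring of mothers that ate freely, and each group had 3 females and 3 males. Every animal gave biopsies of liver, vastus lateralis muscle and omental adipose after 7 weeks on the HFCS diet (a high-fat, high-carbohydrate, high-salt Western diet with a fructose drink) and, before it, on the chow diet it had eaten since weaning. This gave 72 arrays, 24 for each tissue and 6 for each tissue, maternal group and diet. No animal in these data stayed on chow while the others changed diet, so the effect of the HFCS diet cannot be told apart from 7 weeks of time or from a second biopsy. The biopsies are bulk tissue, in which fewer cells of a type and less RNA per cell cannot be told apart.

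Levels below are log2 quantile normalized signals, differences are on the same log2 scale with the standard error (SE) of the limma fit, and a gene was called where its Benjamini-Hochberg adjusted p over all genes of the tissue was under 0.05 and its fold at least 1.2. Of the 72 arrays, 4 correlated poorly with the others of their tissue (median r of 0.501 in liver of MUN replicate 4 on chow, 0.675 in MUN replicate 6 on chow, 0.0925 in MUN replicate 4 on HFCS, and -0.0071 in muscle of CON replicate 5 on chow). These are called the weak arrays, and most results of the members are given with and without them. The weak arrays had 3179 to 10136 detected probes and the others 9774 to 14438. The hepatocyte marker ALB had levels of 13.94 to 14.48 on the other liver arrays, FABP4, a fatty acid carrier of adipocytes, had levels of 13.44 to 14.41 on the adipose arrays, and the mean of 4 myofiber markers was 13.57 to 14.09 on the other muscle arrays. ADIPOQ, which defines adipocytes, had only 7.27 on average in adipose, no more than the 7.28 in muscle. LPL, another adipocyte marker, averaged 7.05 in adipose and 7.04 in muscle, while PLIN1 averaged 8.61 and 7.12. FABP4 averaged 10.19 in muscle. TF, a hepatocyte gene, averaged 7.07 in liver. The muscle array of CON replicate 1 on chow carried ALB at 14.31, a liver level, and stood apart from the other muscle arrays in this.

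Between tissues SC5D and HMGCS1 stood highest in liver and NSDHL lowest in muscle, on a scale for which all 72 arrays were normalized together. SC5D, which makes the sterol that DHCR7 converts to cholesterol, had a level of 10.88 ± 0.23 in liver (SD, 21 arrays), against 8.72 ± 0.35 in adipose (24 arrays) and 8.47 ± 0.16 in muscle (23 arrays), all without the weak arrays. The lowest of these liver levels, 10.30, was above the highest in adipose, 9.63, and in muscle, 8.77. With all arrays the liver minus muscle difference was 2.19 ± 0.20 (SE, adjusted p = 4.18e-15) and the liver minus adipose difference 1.89 ± 0.20 (SE, adjusted p = 1.13e-12), and without the weak arrays they were 2.51 and 2.25.

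HMGCS1, which condenses acetyl units into HMG-CoA early in the chain, had a level of 9.51 ± 0.58 in liver, against 8.26 ± 0.23 in adipose and 8.72 ± 0.24 in muscle (SD, without the weak arrays). Its liver levels spread from 8.82 to 11.00, the widest range of the 6 measured genes in that tissue, and the lower ones overlapped with muscle, which reached 9.03. The liver minus muscle difference was 0.96 ± 0.14 (SE, adjusted p = 6.47e-09) and the liver minus adipose difference 1.36 ± 0.14 (SE, adjusted p = 1.05e-13), and they were 0.78 and 1.26 without the weak arrays. HMGCS1 was also lower in adipose than in muscle, by a difference of -0.40 ± 0.14 (SE, adjusted p = 0.00922), the 1 member called in that direction, where 15.8% of all genes were called lower, though without normalization between arrays this difference was 0.039.

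NSDHL, which helps to strip methyl groups from the sterol ring, had a level of 8.68 ± 0.26 in liver, 8.64 ± 0.33 in adipose and 7.06 ± 0.11 in muscle (SD, without the weak arrays), where it was detected on only 3 of 24 arrays. No liver or adipose level, the lowest being 8.17 and 8.12, came down to the highest in muscle, 7.34. With so few detected arrays the muscle level was mostly that of background, and the liver minus muscle difference of 1.66 and the adipose minus muscle difference of 1.57 are set against it, so they are given without a test. The probe entered the comparison only through liver and adipose, which differed by 0.09 ± 0.07 (SE, adjusted p = 0.274).

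The other members differed less. DHCR7, which makes cholesterol itself in the last step, differed by 0.41 ± 0.05 between liver and muscle (SE, adjusted p = 1.04e-10) and by 0.17 ± 0.05 between liver and adipose (SE, adjusted p = 0.00197), the second under the fold of 1.2. The DHCR7 probe was detected on only 10 of 24 muscle arrays, so its difference against muscle is set partly against background. FDPS, which makes farnesyl diphosphate, differed by 0.37 ± 0.13 between liver and muscle and by 0.32 ± 0.13 between liver and adipose (SE, adjusted p = 0.0129 and 0.0304). Without the weak arrays these FDPS differences were 0.25 and 0.21, under the fold of 1.2, so the FDPS calls rested on those arrays. They were also lost without MUN replicate 4 (0.21 and 0.19), and the second one without CON replicate 1, 2 or 6 (0.31, 0.30 and 0.30). SQLE, the epoxidase that follows squalene, differed by 0.26 ± 0.06 between liver and muscle and by 0.20 ± 0.06 between liver and adipose (SE), also under 1.2-fold. Its probe was detected on 14 of 24 liver, 15 of 24 adipose and 2 of 24 muscle arrays, so these differences are set against background in muscle and near it in the other tissues.

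In all, SC5D, HMGCS1, DHCR7 and FDPS were called higher in liver than in muscle, where 26.4% of the 10966 genes tested between tissues were. Called higher in liver than in adipose were 3 of 6 members (SC5D, HMGCS1 and FDPS), where 22.8% of all genes were. NSDHL is not counted as a call against muscle, since it passed the detection filter only through the tissues where it was high. No other member was called higher in adipose than in muscle, where 24% of all genes were. Without the weak arrays FDPS lost its calls. SC5D, HMGCS1 and DHCR7 were then called higher in liver than in muscle, where 27.5% of all genes were. Against adipose 2 of 6 (SC5D and HMGCS1) were called higher in liver, where 23.6% were. The order of liver and adipose depended on the scaling for 4 members. Without normalization the median of all genes was shifted by -0.53 between liver and adipose, and the liver minus adipose differences of DHCR7, FDPS, NSDHL and SQLE were then -0.31, -0.32, -0.68 and -0.24. Those of SC5D and HMGCS1 stayed above 0, at 1.33 and 0.60.

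**Figure D1:**
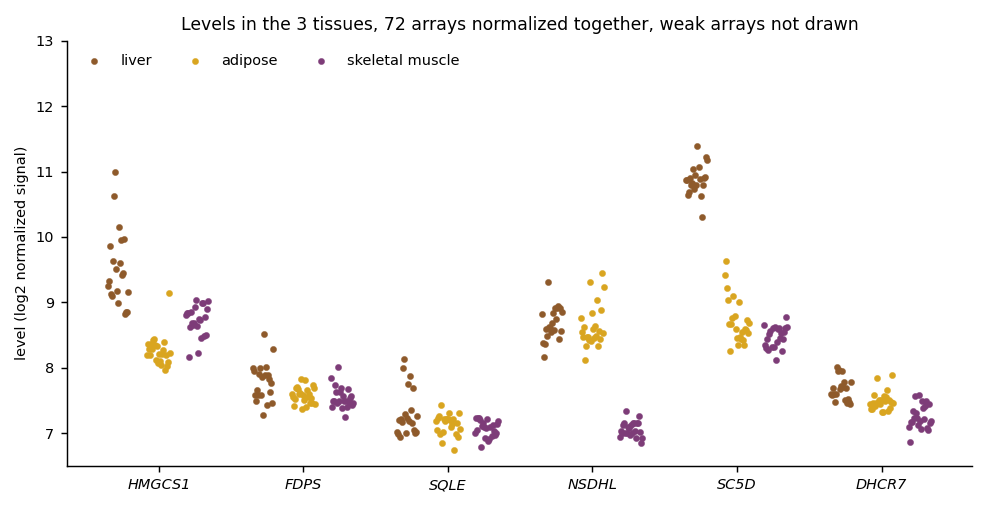
Levels (y axis, log2 normalized signal) of 6 cholesterol synthesis genes (x axis) on 21 liver, 24 adipose and 23 skeletal muscle arrays, 1 point per array, with the weak arrays not drawn. SC5D in liver (10.30 to 11.39) lies above both other tissues, HMGCS1 in liver has the widest spread (8.82 to 11.00), and NSDHL in muscle (6.85 to 7.34) lies below both other tissues.

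In CON liver, 3 members had lower levels on HFCS than on chow in 6 of 6 animals: SQLE, NSDHL and DHCR7. The share of all genes lower in 6 of 6 animals was not computed, so this count is only a description. SQLE had 6.69 at its lowest, 6.86 at the median and 6.99 at its highest on HFCS, against 6.76, 7.29 and 7.86 on chow. The HFCS levels lay close together, while the chow levels were split, with 7.72, 7.86 and 7.50 in CON replicates 1, 2 and 6 and 6.76 to 7.07 in the other 3 animals. The SQLE probe was detected on 3 of 6 arrays on HFCS and on 5 of 6 on chow, so the low values lay near background. The fitted SQLE difference was -0.47 ± 0.18 (SE, unadjusted p = 0.018) with all arrays and -0.50 ± 0.17 (SE, unadjusted p = 0.00823) without the weak ones. The change per animal was -0.95, -1.13 and -0.55 in CON replicates 1, 2 and 6. In replicates 3, 4 and 5 it was only -0.10, -0.06 and -0.00335, so the count of 6 includes an animal with almost no change.

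DHCR7 had 7.25, 7.36 and 7.45 (lowest, median and highest) in CON liver on HFCS, against 7.43, 7.69 and 7.74 on chow. The ranges met only at their edges, and the change per animal was between -0.38 and -0.08. The fitted difference was -0.27 ± 0.10 (SE, unadjusted p = 0.0128) with all arrays and -0.29 ± 0.08 (SE, unadjusted p = 0.00107) without the weak ones. NSDHL had 7.88, 8.13 and 8.49 on HFCS, against 8.24, 8.34 and 8.98 on chow, with changes per animal between -0.48 and -0.08. Its fitted difference was -0.29 ± 0.15 (SE, unadjusted p = 0.0694) with all arrays and -0.32 ± 0.13 (SE, unadjusted p = 0.0266) without the weak ones, and the ranges of the diets overlapped. A dimmer second probe of SQLE differed by -0.22 ± 0.08 and one of DHCR7 by -0.22 ± 0.15 (SE, limma, unadjusted p = 0.0161 and 0.161, without the weak arrays). With all arrays these were -0.21 ± 0.35 and -0.21 ± 0.28 (SE, unadjusted p = 0.565 and 0.469).

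HMGCS1 followed the same split as SQLE. It had 8.76, 8.95 and 9.51 (lowest, median and highest) in CON liver on HFCS, against 8.66, 9.49 and 10.66 on chow. In CON replicates 1, 2 and 6 it was lower on HFCS by 1.37, 1.67 and 0.52, and in the other 3 animals the change was 0.34, -0.05 and 0.10. The fitted difference was -0.53 ± 0.40 (SE). FDPS and SC5D differed by -0.13 ± 0.43 and -0.16 ± 0.61 (SE), with lower levels on HFCS in 3 of 6 and 4 of 6 animals.

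No member passed the call in CON liver, where 0% of all genes did (limma, lowest adjusted p of a member 1.00). At an unadjusted p under 0.05 in limma, 2 of 6 members (DHCR7 and SQLE) were lower, where 0.403% of all genes were. Without the weak arrays, none of which is a CON liver array but which enter the normalization and the estimate of the spread, 3 of 6 were lower (DHCR7, SQLE and NSDHL), where 1.47% of all genes were. All 6 members had a difference below 0 with either set of arrays, where 48.5% and 48.4% of all genes did. The median difference of the 6 members was -0.28 with all arrays and -0.30 without the weak arrays, against 0.00 over all genes in both. Members of 1 pathway measured on the same arrays are not independent of each other. They were also chosen with earlier results of these data known, so these counts and shares do not test them.

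**Figure D2:**
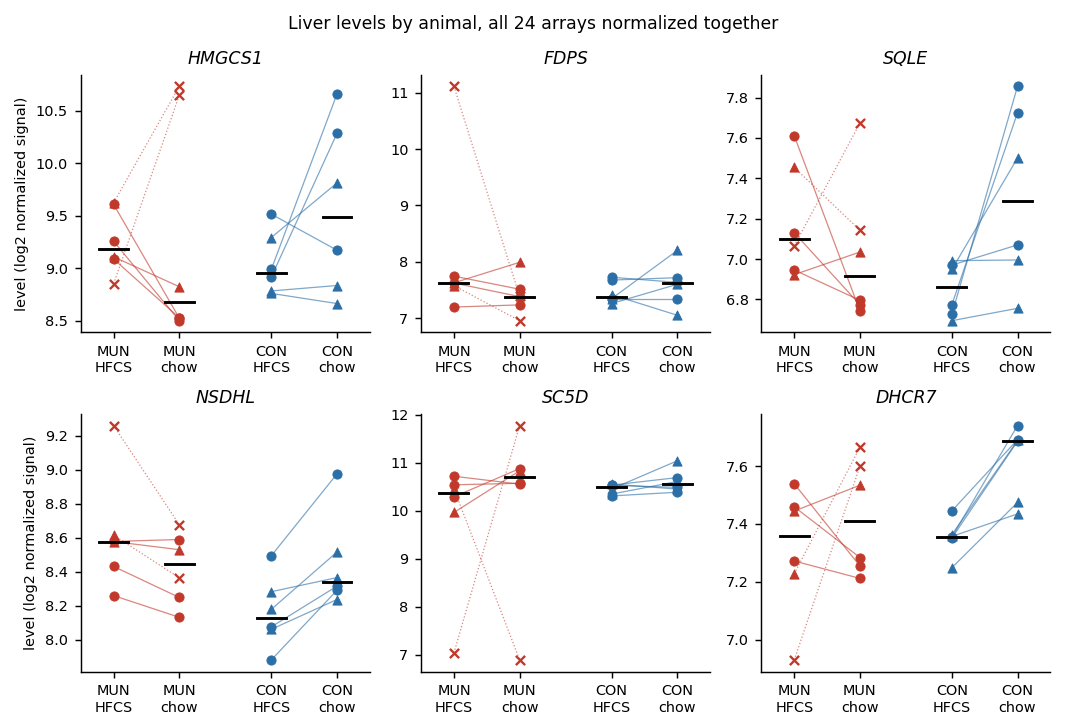
Levels (y axis, log2 normalized signal, a scale of its own in each panel) of 6 members in liver by maternal group and diet, 1 point per animal, with lines joining the same animal. Circles are females, triangles males, crosses with dotted lines weak arrays, and bars group medians. In CON, SQLE, NSDHL and DHCR7 are lower on HFCS than on chow in 6 of 6 animals, though SQLE by only -0.00335 in CON replicate 5. FDPS and SC5D reach their extremes (11.12, 7.04 and 6.90) on weak arrays in MUN.

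In MUN liver the members did not share a direction. HMGCS1 had 8.85, 9.18 and 9.62 (lowest, median and highest) on HFCS, against 8.50, 8.67 and 10.73 on chow. The 4 chow arrays that were not weak lay between 8.50 and 8.82, and the 2 weak ones had 10.65 and 10.73. The fitted difference was -0.04 ± 0.40 (SE) with all arrays and 0.81 ± 0.33 (SE, unadjusted p = 0.0217, adjusted p = 0.999) without the weak ones, so its sign depended on them. In the 4 animals with a sound array on both diets, HMGCS1 was higher on HFCS in 4 of 4, by 0.31 to 1.18. The share of all genes higher in 4 of 4 animals was not computed.

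SQLE in MUN liver had 6.92, 7.10 and 7.61 on HFCS, against 6.74, 6.91 and 7.67 on chow, where the highest value came from a weak array. Its fitted difference was 0.16 ± 0.18 (SE) with all arrays and 0.40 ± 0.20 (SE) without the weak ones, and it was higher on HFCS in 3 of 4 animals with sound arrays. NSDHL and DHCR7 had differences of 0.13 ± 0.15 and 0.07 ± 0.09 (SE) without the weak arrays, each higher in 3 of 4 animals. SC5D had a difference of -0.34 ± 0.14 (SE, unadjusted p = 0.0284, adjusted p = 0.999) without the weak arrays and was lower in 3 of 4 animals.

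With all arrays the values of SC5D and FDPS in MUN liver were set by the weak ones. SC5D had 7.04 on the weak HFCS array and 11.77 and 6.90 on the weak chow arrays, while the sound arrays lay between 9.96 and 10.88. FDPS had 11.12 on the weak HFCS array, while no other MUN liver array was above 7.99. The fitted FDPS difference was 0.74 ± 0.43 (SE) with all arrays and 0.03 ± 0.20 (SE) without the weak ones. No member was called in MUN liver, where 0% of all genes were, and the lowest adjusted p of a member was 0.593 (limma).

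**Figure D3:**
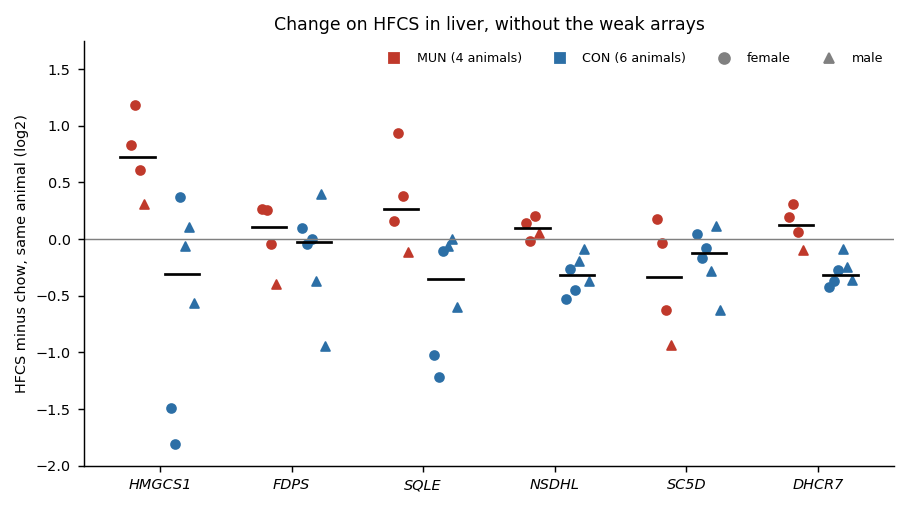
Change on HFCS in liver (y axis, HFCS minus chow of the same animal, log2) for 6 members (x axis), in 4 MUN animals and 6 CON animals, without the weak arrays. Red is MUN and blue CON, circles are females, triangles males and bars medians. HMGCS1 is above 0 in 4 of 4 MUN animals (0.31 to 1.18), and SQLE, NSDHL and DHCR7 are at or below 0 in 6 of 6 CON animals.

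On chow, the sound MUN livers had low HMGCS1, SQLE and DHCR7. HMGCS1 on these 4 arrays, 8.50, 8.52, 8.53 and 8.82, lay at the low end of the 6 CON arrays, which had 8.66, 9.49 and 10.66 (lowest, median and highest). The levels in this paragraph are from the normalization of all liver arrays. Differences without the weak arrays rest on a normalization without them, where HMGCS1 had 8.71 to 9.06 in MUN and 8.89 to 11.05 in CON. The MUN minus CON difference of HMGCS1 was -1.06 ± 0.31 (SE, unadjusted p = 0.00287) without the weak arrays, against -0.28 ± 0.40 (SE) with them. SQLE on these arrays had 6.74 to 7.03, against 6.76 to 7.86 in CON, and DHCR7 had 7.21 to 7.53, against 7.43 to 7.74. Each gene thus had MUN arrays below the lowest CON array and others within the CON range. The SQLE probe was detected on 1 of these 4 MUN arrays and on 5 of 6 CON arrays, so its MUN level is mostly that of background and the SQLE difference is set against it. SQLE differed by -0.52 ± 0.19 (SE, unadjusted p = 0.0136) without the weak arrays and -0.29 ± 0.18 (SE) with them. DHCR7 differed by -0.33 ± 0.09 (SE, unadjusted p = 0.00104) and -0.19 ± 0.10 (SE). Without the weak arrays, the dimmer second probes differed by -0.18 ± 0.09 for SQLE and -0.25 ± 0.17 for DHCR7 (SE, limma, unadjusted p = 0.0618 and 0.156). NSDHL, FDPS and SC5D differed by -0.08 ± 0.15, -0.07 ± 0.19 and 0.11 ± 0.14 (SE) without the weak arrays.

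None was called on chow, where 0% of all genes were, and the lowest adjusted p of a member was 0.964 with all arrays and 1.00 without the weak ones (limma). At an unadjusted p under 0.05, 0 of 6 members were lower in MUN with all arrays, where 1.19% of all genes were, and 3 of 6 without the weak arrays, where 2.18% of all genes were. Both weak chow arrays came from MUN males, so without them MUN on chow is represented by 3 females and 1 male. Macrophage markers moved with this comparison: the mean level of 5 of them (CD68, CD163, CD14, CSF1R and MARCO) had a median of 9.60 (9.39 to 9.77) in the 4 MUN livers and 9.98 (9.57 to 10.26) in the 6 CON livers, and 3 of 5 were lower at an unadjusted p under 0.05. Their part in the result was not tested. The mean of 6 hepatocyte markers had a median of 12.53 in these MUN livers and 12.45 in CON.

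On HFCS, SQLE and NSDHL had higher mean levels in MUN than in CON, while on chow SQLE had been lower in MUN and NSDHL had hardly differed. NSDHL had 8.26, 8.58 and 9.26 (lowest, median and highest) in MUN and 7.88, 8.13 and 8.49 in CON, where the MUN maximum is a weak array. The MUN minus CON difference was 0.46 ± 0.15 (SE, unadjusted p = 0.00604, adjusted p = 0.768) with all arrays and 0.36 ± 0.14 (SE, unadjusted p = 0.0163) without the weak one. SQLE had 6.92, 7.10 and 7.61 in MUN and 6.69, 6.86 and 6.99 in CON, a difference of 0.34 ± 0.18 (SE) with all arrays and 0.39 ± 0.18 (SE, unadjusted p = 0.0436) without. Its probe was detected on 3 of 5 sound MUN arrays and on 3 of 6 CON arrays. The dimmer second probe of SQLE differed by 0.11 ± 0.09 (SE, limma, unadjusted p = 0.242) without the weak arrays. The ranges overlapped for both genes, and HMGCS1 and DHCR7 differed by 0.32 ± 0.29 and 0.04 ± 0.08 (SE) without the weak array. No member was called, where 0% of all genes were. At an unadjusted p under 0.05, 1 of 6 members was higher in MUN with all arrays, where 1.6% of all genes were, and 2 of 6 without, where 2.33% were.

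The difference between the HFCS change in MUN and that in CON was tested directly. For SQLE it was 0.63 ± 0.26 (SE, unadjusted p = 0.0236) with all arrays and 0.91 ± 0.26 (SE, unadjusted p = 0.00252) without the weak ones, since SQLE was lower on HFCS in CON and higher in MUN. For HMGCS1 it was 0.49 ± 0.56 (SE) with all arrays and 1.38 ± 0.43 (SE, unadjusted p = 0.00427) without. NSDHL had 0.49 ± 0.21 and 0.44 ± 0.20 (SE, unadjusted p = 0.0332 and 0.0399), and DHCR7 had 0.15 ± 0.14 and 0.37 ± 0.12 (SE, unadjusted p = 0.282 and 0.00538). Without the weak arrays, the dimmer second probes gave 0.29 ± 0.13 for SQLE and 0.23 ± 0.23 for DHCR7 (SE, limma, unadjusted p = 0.0345 and 0.335). The SQLE probe used was detected on 1 of 4 sound MUN and 5 of 6 CON arrays on chow. On HFCS it was detected on 3 of 5 and 3 of 6, so its values lay near background. No member was called, where 0% of all genes were, and the lowest adjusted p of a member was 0.954 with all arrays and 0.999 without (limma). At an unadjusted p under 0.05, 2 of 6 members had a more positive change in MUN than in CON with all arrays, where 0.53% of all genes did, and 4 of 6 without the weak arrays, where 1.31% did. This comparison and the 4 before it share their arrays, so they are not separate evidence of one pattern.

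**Figure D4:**
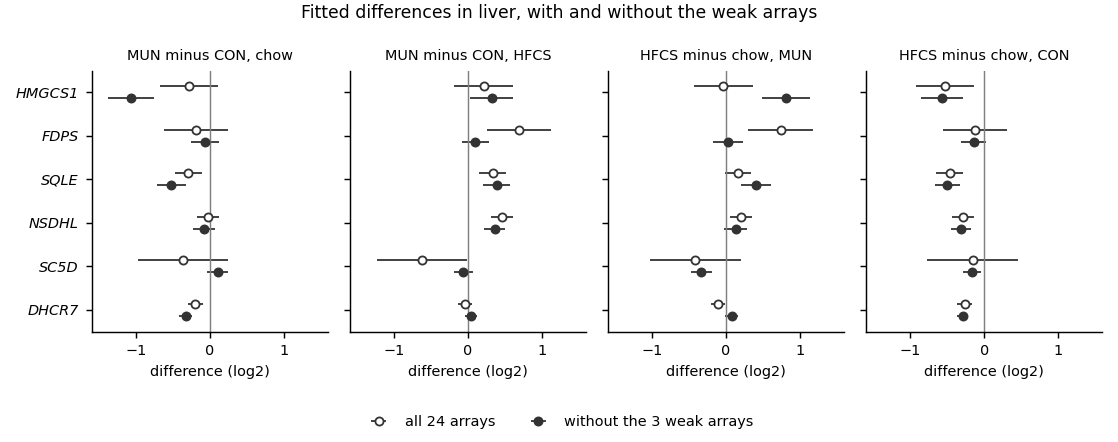
Fitted differences in liver (x axis, log2, with SE bars) for 6 members (y axis) in 4 comparisons, with all 24 arrays (open circles) and without the 3 weak arrays (filled circles). HMGCS1 moves most with the weak arrays, from -0.28 to -1.06 between MUN and CON on chow and from -0.04 to 0.81 between HFCS and chow in MUN, while the CON differences hardly move.

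Averaged over both maternal groups, the HFCS minus chow difference in liver was -0.19 ± 0.07 (SE, unadjusted p = 0.0123) for DHCR7 with all arrays and -0.11 ± 0.06 (SE, unadjusted p = 0.0784) without the weak ones. For SC5D it was -0.29 ± 0.43 (SE) with all arrays and -0.25 ± 0.09 (SE, unadjusted p = 0.0145) without. No member was called, where 0% of all genes were.

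In skeletal muscle the 4 measured members showed no call in any comparison. DHCR7 had 6.87, 7.19 and 7.35 (lowest, median and highest) in CON muscle on HFCS, against 7.15, 7.42 and 7.57 on chow, and was detected on 1 of 6 and 3 of 6 of these arrays. Its difference was -0.23 ± 0.10 (SE, unadjusted p = 0.0259, adjusted p = 0.328), -0.19 ± 0.10 (SE) without the weak array, and -0.15 ± 0.10 (SE) when the array with hepatocyte RNA was left out too. The difference of the HFCS change between MUN and CON was 0.29 ± 0.14 (SE, unadjusted p = 0.0463, adjusted p = 0.767) for DHCR7 with all arrays and 0.25 ± 0.13 (SE, unadjusted p = 0.0726) without the weak array, where no member had an unadjusted p under 0.05. HMGCS1 and SC5D had their lowest CON chow values, 7.58 and 7.40, on the weak array, and without it their differences lay between -0.16 and 0.05 in the comparisons of diets and of maternal groups. FDPS differences lay between -0.14 and -0.04 with all arrays in these. Over all genes 0.0745% were called for HFCS against chow in CON muscle and 0% in the other 5 muscle comparisons.

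In adipose the largest difference of a member was that of SC5D between MUN and CON on HFCS. It had 8.75, 8.86 and 9.43 (lowest, median and highest) in MUN, against 8.65, 9.54 and 10.04 in CON. The MUN levels lay within a narrow range apart from their highest, and the CON levels spread widely, so the ranges overlapped. The difference was -0.50 ± 0.17 (SE, unadjusted p = 0.00653, adjusted p = 0.308), and on chow it was -0.15 ± 0.17 (SE). NSDHL differed by -0.22 ± 0.12 (SE) between HFCS and chow over both maternal groups, and SQLE by 0.12 ± 0.07 (SE). The other differences of HMGCS1, FDPS and DHCR7 between diets or maternal groups lay between -0.12 and 0.06. No member was called in adipose, where 0.0216% of all genes were for MUN against CON on HFCS, 0.0108% for HFCS against chow over both maternal groups, and 0% in the other 4 comparisons.

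The members varied together in liver more than in the other tissues. Over the 21 sound liver arrays, which came from 11 animals, Pearson's r between pairs of members was above 0 in 15 of 15 pairs, with a median of 0.41 and a range of 0.05 to 0.89. HMGCS1 and SQLE were the closest pair, at 0.89, followed by DHCR7 with HMGCS1, at 0.68, and DHCR7 with SQLE, at 0.63. SC5D had the lowest values, 0.05 with NSDHL and 0.07 with HMGCS1, though 0.49 with FDPS. In adipose the median over 15 pairs was 0.05 and in muscle 0.16 over 6 pairs. These are descriptions, since the arrays share animals, groups and a normalization. Differences between groups were left in the levels, so they enter each r. No r over pairs of other genes was computed, so a pattern particular to the members was not tested.

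**Figure D5:**
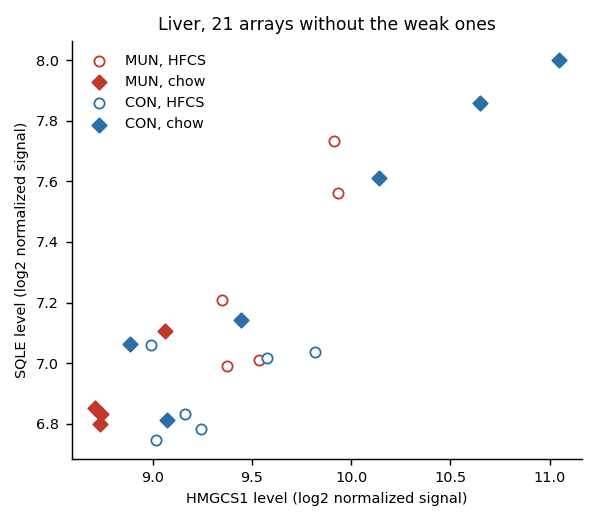
Level of SQLE (y axis) against that of HMGCS1 (x axis), both log2 normalized signals, on the 21 sound liver arrays, red for MUN and blue for CON, with open circles for HFCS and filled diamonds for chow. Of the 6 CON chow arrays 3 form the upper right, and the 4 MUN chow arrays lie at the lower left (r = 0.89 over the arrays).

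The rest of the pathway was read from fixed lists. Liver levels and differences of single genes from these lists are given only without the weak arrays. How far these values depend on leaving those arrays out is not shown. Of 12 other synthesis enzymes 6 were measured in liver, and none was called in any liver comparison. MSMO1, which acts just ahead of NSDHL in the removal of sterol methyl groups, had 8.78, 9.02 and 9.09 (lowest, median and highest) in the 4 sound MUN livers on chow, against 9.00, 9.84 and 10.97 in CON. The difference was -0.93 ± 0.33 (SE, unadjusted p = 0.0103, adjusted p = 1.00), and the MUN minus CON difference of its HFCS change was 1.11 ± 0.45 (SE, unadjusted p = 0.0223, adjusted p = 0.999). EBP, a sterol isomerase, had a HFCS minus chow difference of -0.33 ± 0.14 (SE, unadjusted p = 0.0306, adjusted p = 1.00) in CON liver without the weak arrays. Of the 6, 5 had a difference below 0 in that comparison, where 48.4% of all genes did. Between tissues, where 7 of the 12 were measured, 4 were called higher in liver than in muscle, where 26.4% of all genes were. Against adipose 4 were called higher in liver and 1 lower, where 22.8% and 26.3% of all genes were.

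Of 7 regulators, 7 were measured in liver with all arrays and 5 without the weak ones, and of 8 uptake and 9 removal genes 3 and 5 were measured. None was called in a liver comparison. NPC2, which carries cholesterol out of lysosomes, had 11.29, 11.48 and 11.83 on HFCS and 11.14, 11.27 and 11.42 on chow in MUN liver, and 11.42, 11.62 and 11.79 on HFCS and 11.31, 11.42 and 11.53 on chow in CON liver, without the weak arrays. Its difference over both maternal groups was 0.22 ± 0.07 (SE, unadjusted p = 0.00312, adjusted p = 0.827). NR1H3, the sterol sensor LXR alpha, differed by 0.22 ± 0.07 (SE, unadjusted p = 0.00317, adjusted p = 0.827) in the same comparison. ABCG8, a sterol exporter of the canalicular membrane, was at -0.42 ± 0.18 (SE, unadjusted p = 0.0285, adjusted p = 0.887) between MUN and CON on HFCS without the weak arrays, and INSIG2, which retains the SREBP complex, at -0.28 ± 0.13 (SE, unadjusted p = 0.0461, adjusted p = 0.925). None of these lists had a called gene within muscle or adipose.

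The genes whose levels were most like those of the 6 members in liver, by the median Pearson r with them over the 21 sound arrays, were SKI (0.59), NPC1L1 (0.57), MED7 (0.55), MYO18A (0.54) and NRG4 (0.54). NPC1L1 is a sterol transporter of the canalicular and intestinal membranes, and its r with single members was 0.34 to 0.65. Its level was 6.98, 7.17 and 7.31 (lowest, median and highest) in MUN livers on chow and 7.10, 7.50 and 7.87 in CON livers on chow. In muscle the closest genes included ATP5MF (0.47), CCDC28B (0.47) and PARK7 (0.46), and in adipose BTBD18 (0.41), TTYH3 (0.39), BRD2 (0.39) and SDHAF3 (0.38). SNORD139 (0.46) and UBE2D3-AS1 (0.45) were also among the 5 closest in muscle, and MIR192 (0.42) was the closest in adipose. Each of these adipose genes had a negative r with at least 1 member, down to -0.29 for TTYH3. In muscle the same held for PARK7 (-0.12) and SNORD139 (-0.03). Like all genes here, these were matched to their probes by symbol alone.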

How the data were processed

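RNA of 72 baboon biopsies was hybridized to Illumina HumanHT-12 v4 BeadChips. The authors extracted probe signals with GenomeStudio and analysed them in Partek, with versions not given in the sources used here. The deposited table holds a signal intensity for each of 47231 probes and array without normalization, and beside it a deposited detection score that is high for detected probes. A second deposited table holds linear intensity values of 36088 probes whose medians lie between 121.045 and 121.048 on all arrays and whose ranks are those of the signals, so its arrays were scaled to 1 distribution. It was used only as an alternative. A depth in reads does not exist for arrays, so their number limits the precision.

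In each tissue, probes scored above 0.95 on 6 or more of 24 arrays entered the tests. Signals were put on the log2 scale and quantile normalized tissue by tissue, and the brightest kept probe with 1 symbol stood for its gene. Group means were compared with limma 3.58.1 in R 4.3.3 (lmFit, contrasts.fit, eBayes) in 6 contrasts per tissue. Tissues were compared over all 72 arrays normalized together, with the animal as a random block. No background correction was applied, so differences of dim probes are understated. An array was called weak where its median r with the other arrays of its tissue was under 0.9. The fit was tested on simulated data before use. Figures were drawn with matplotlib.

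The same animals carry the same number in every group. As a check of this pairing, the residuals of an animal's 2 arrays correlated with a median r of 0.368 in liver, 0.176 in muscle and 0.203 in adipose, and the animal as a block was run as an alternative because the study's methods use none. Alternatives also covered the weak arrays, sex, array weights, background correction, filters, normalization, probes and each animal in turn. Slide and scan date are not given in the sources used here. The members and gene lists were chosen with earlier results of these data known. All members were named; of other lists, called genes or else up to 4 with the smallest p in a liver comparison; and the 5 genes most like the members per tissue.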

Additional observations from a re-analysis of the deposited data

Results flagged for a closer look

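The results below were picked because a sample stood far from the rest of its group by Dixon's test at the 95% level, which picks about 5% of groups by chance. It was met in 12 of 64 groups with all arrays and in 1 of 16 groups that had lost a weak array.

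Weak arrays account for 6 of the 12. In liver, MUN replicate 4 on HFCS had FDPS at 11.12, NSDHL at 9.26 and SC5D at 7.04, each far from the other 5 MUN animals, and MUN replicate 6 on chow had SC5D at 6.90. In muscle, CON replicate 5 on chow had HMGCS1 at 7.58 and SC5D at 7.40, below the other 5 CON animals.

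The other 6 came from sound arrays. In adipose on chow, MUN replicate 5 was high in both DHCR7 (8.23) and HMGCS1 (9.56), and CON replicate 2 was high in DHCR7 (8.17). MUN replicate 2 was high in SC5D in adipose on HFCS (9.43). In muscle, CON replicate 2 was high in FDPS on chow (7.91) and CON replicate 4 was low in HMGCS1 on HFCS (8.06). Without the weak arrays, MUN replicate 5 had HMGCS1 at 9.06 in liver on chow, above the other 3 MUN animals.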

How the results depend on the processing

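Within tissues the count of called members stayed 0 under all 504 combinations of comparison and alternative, the animal as a replicate block included, so the block changed no call of a member. Single members were followed only in comparisons where their unadjusted p in limma was under 0.05 with all arrays or without the weak ones. Among these preselected differences the direction was kept in 640 of 662, which says nothing of the members and comparisons not followed. The exceptions were in liver. HMGCS1 between HFCS and chow in MUN (-0.04) was 0.81 without the weak arrays, 0.79 with the block as well, 0.86 with sex as a term as well, 0.70 with array weights and 0.00407 with normexp background correction. It lay between -0.26 and 0.34 without each animal in turn, above 0 without MUN replicate 4 (0.34) or 6 (0.18). With the weak arrays left out too, it was 0.71 without MUN replicate 2, 0.73 without 6, 0.80 without 1, 0.86 without 3, 0.96 without 5, and 0.81 without any other animal. SC5D between HFCS and chow lay between -1.22 and 0.48 in MUN and between -0.69 and 0.16 over both maternal groups, above 0 only without MUN replicate 4. DHCR7 over both maternal groups was 0.025 by its dimmer probe.

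Between tissues, the median of all genes shifted by -0.53 (liver minus adipose), -0.27 (liver minus muscle) and 0.21 (adipose minus muscle) without normalization, an alternative chosen after seeing the data, as was leaving out animals and weak arrays together. Called members, in either direction, were then 3 of 6 between liver and muscle (5 with normalization), 5 between liver and adipose (3) and 4 between adipose and muscle (2). The counts against muscle include NSDHL, whose level there was mostly that of background. SQLE was at -0.025 between liver and muscle, HMGCS1 at 0.039 between adipose and muscle, and DHCR7, FDPS, NSDHL and SQLE at -0.31, -0.32, -0.68 and -0.24 between liver and adipose. With normexp, 5 members were called between liver and adipose. NSDHL between liver and adipose reached -0.00446 without MUN replicate 2 and the weak arrays.

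Over all genes, HFCS against chow in CON muscle called 6 genes, against 42 without the weak array and 102 with the block as well. In CON liver it called 0 with all arrays and 3 with the block and without the weak arrays. MUN against CON on HFCS in adipose called 2, against 4 with sex as a term. In liver, the adjusted p of DHCR7 between MUN and CON on chow ranged from 0.0927 with array weights to 1.00. The requirement of detection on all 24 arrays left no value for several members. The cause of these shifts was not tested. SQLE in liver and DHCR7 in muscle lay close to background, which limits how small a difference they can show.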

Other observations

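The animals differed in how many of the 6 members were lower on HFCS than on chow in liver, without the weak arrays and counting any value below 0. Among the 4 MUN animals with a sound array on both diets the counts were 0, 2, 2 and 4. Among the 6 CON animals they were 4, 6, 5, 6, 3 and 6, in replicates 1 to 6. The 5 of CON replicate 3 include FDPS at -0.000114, which was 0 when normalized with all arrays. The CON animals with 6 lower members were 1 female and 2 males, and the MUN animal with 4 was the male of the 4. These counts add no test to the comparisons in the report, since they come from the same values.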
